A study of Mus musculus with 42 samples.

Results

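The constitutive proteasome subunits were followed in liver RNA of APOE*3-Leiden mice. They were taken as the protein-coding genes whose symbol starts with Psma, Psmb, Psmc or Psmd and a digit, without Psmb8, Psmb9 and Psmb10, and with at least 10 counts in at least 10 of the 42 mice. Of 44 genes with such a symbol, 36 met this rule, out of 13732 protein-coding genes past the same minimum and 54446 genes in the count table. Left out were the 3 inducible subunits, 4 processed pseudogenes with 0 counts each, and Psmb11, the thymus subunit, which had 19 counts in all mice together. The 36 genes are spread over 16 chromosomes. They hold 8 genes of the alpha ring, 7 of the beta ring, 6 ATPases, 11 non-ATPase subunits and 3 assembly chaperones that share the Psmd prefix (Psmd5, Psmd9 and Psmd10). The last gene, Psmc3ip, carries the prefix but encodes a recombination factor and no subunit. Psma8 encodes the alpha subunit of germ cells, and its counts in these livers were as low as those of Psmc3ip, so that the label of a constitutive subunit holds for neither gene.

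The 26S proteasome degrades proteins that carry a ubiquitin chain. Its barrel, the 20S core, is a stack of alpha and beta rings, and only the beta subunits encoded by Psmb5, Psmb6 and Psmb7 cut peptide bonds, with chymotrypsin-like, caspase-like and trypsin-like activity. The 19S cap holds a ring of ATPases that unfolds the substrate, and non-ATPase subunits that bind ubiquitin, remove it and form the lid. In inflamed tissue Psmb8, Psmb9 and Psmb10 can take the place of Psmb5, Psmb6 and Psmb7 and give the immunoproteasome. The genes of the constitutive subunits are known targets of the transcription factor NRF1, encoded by Nfe2l1.

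The mice were females that carry the human APOE*3-Leiden transgene, as did the controls, and one library was made from the liver of each mouse. The 10 mice of the group Chow32w stayed on maintenance chow. The 16 mice of WTD32w received a Western-type diet (WTD) with 15% cocoa butter, 40.5% sucrose and 1% cholesterol from an age of 8 to 14 weeks, with a run-in before the study began, to which 0.05% sodium cholate was added at week 22. The 16 mice of WTD&Atorvastatin32w received the same diet with atorvastatin, an inhibitor of HMG-CoA reductase, at 3.0 mg/kg/day and from week 5 at 4.5 mg/kg/day. Livers were taken at 32 weeks. The WTD-fed mice were split into the treated and untreated group so that age, weight and plasma lipids matched, while the chow-fed mice were a separate reference, so that all parts of the diet differ together between chow and WTD.

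The libraries held 15661381 to 36224054 counts on genes. Levels are given as CPM, the count relative to a library size corrected by TMM, a scaling that sets the bulk of the genes to no change. Median TMM factors were 0.887 (chow), 1.10 (WTD) and 0.948 (atorvastatin). A gene was called differentially expressed at an adjusted p under 0.01 in the quasi-likelihood test of edgeR over 15574 genes. In 8 libraries over 20% of weakly expressed genes had no count, and these were 3 of the chow group, 4 of the WTD group and 1 of the atorvastatin group. The hepatocyte markers were high in all groups, except Hpd, which had 0 counts in every mouse. Why Hpd had no count was not tested.

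Relative to the bulk of the genes, the RNA of the constitutive proteasome was lower in WTD-fed than in chow-fed mice. The direction of the summed level itself depended on the scaling. The summed level of the 36 genes lay between 3534 and 3987 CPM in chow-fed mice (median 3754), between 2960 and 3537 CPM in WTD-fed mice (median 3261) and between 2985 and 3703 CPM in atorvastatin-treated mice (median 3285). As a share of all counts, without TMM, the same sum had medians of 0.329%, 0.361% and 0.323% in the same order, so that the WTD group was the lower one on the first scale and the higher one on the second. The beta ring was not higher on WTD on either scale, with medians of 834, 647 and 633 CPM and of 0.0743%, 0.0723% and 0.0625% of all counts on chow, WTD and WTD with atorvastatin. The ranges of the beta ring overlapped between chow and WTD on the scale of all counts, and did not on the TMM scale.

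**Figure D1:**
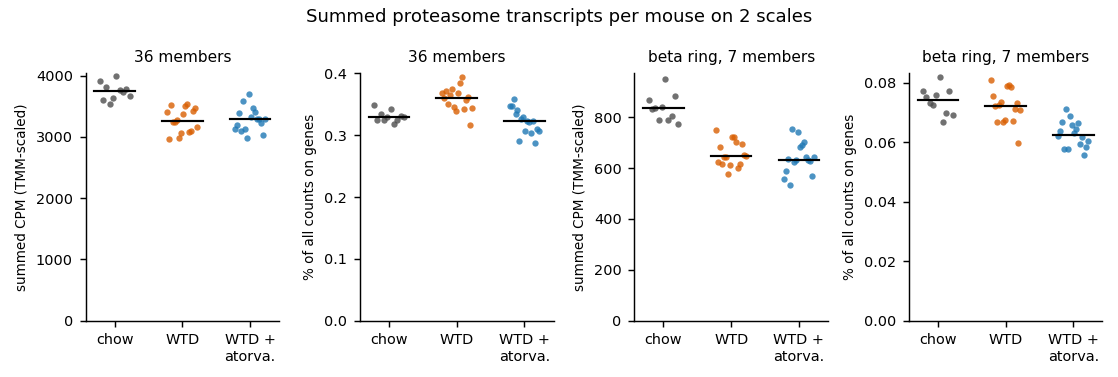
Summed level of the 36 members and of the 7 beta ring members in each mouse (points) with the group median (line), as TMM-scaled CPM and as percent of all counts on genes. The 36 members had medians of 3754, 3261 and 3285 CPM on chow, WTD and WTD with atorvastatin, but 0.329%, 0.361% and 0.323% of the counts, so the order of chow and WTD turned between the scales, while the beta ring was lowest with atorvastatin on both.

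With TMM, 19 of the 36 members fell and 2 rose in WTD-fed compared with chow-fed mice, while with scaling to total counts alone 0 fell and 8 rose. Among all tested genes 16.0% fell and 17.5% rose with TMM, and 7.07% fell and 33.1% rose with total counts. The median log2 fold change of the members was -0.23 with TMM and 0.08 with total counts. The median of all genes was 0.03 with TMM and 0.34 with total counts, and the members lay 0.26 below it on both scales (-0.26 log2 each). Under either scaling 30 of the 36 members lay below the median of all genes. The change of scaling moves all genes together, so this distance and count were bound to be alike and the second scale is no separate check. Without the 8 libraries that lacked weak genes, 18 members fell and 2 rose with TMM, at a median of -0.22, against 16.3% and 18.6% of all genes. With DESeq2 16 fell and 3 rose, next to 9.03% and 13.2% of 26492 genes. Limma-voom gave 22 and 2 (19.9% and 21.9%), and RLE scaling 15 and 2 (14.4% and 19.1%). A fit of only the 2 groups gave 13 and 2 (13.9% and 15.5%). At least 10 counts in every mouse left 34 members, of which 13 fell and 2 rose (20.8% and 21.1%). Of all calls, 52.2% were rises with TMM and 82.4% with total counts. All directions below are therefore directions against the bulk of the genes.

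The mixture of cells also differed between the groups, and its part in these results was not tested. All 7 hepatocyte markers that could be tested fell on WTD with TMM (5 of them with total counts), and their summed level ranged from 112079 to 163546 CPM on chow, 54244 to 112742 CPM on WTD and 63323 to 135732 CPM with atorvastatin. Of 10 macrophage and Kupffer cell markers 8 rose on WTD, with sums of 413 to 640 CPM, 2424 to 4433 CPM and 1746 to 3105 CPM in the same order. Of 8 stellate cell and fibroblast markers 5 rose, and of 5 cholangiocyte markers 5 rose. Among all tested genes 16.0% fell and 17.5% rose with TMM. In whole liver, fewer cells of a type and less RNA per cell cannot be told apart.

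A measure that needs no scaling of libraries is the share that each class takes of the counts of all 36 members. The beta ring took 21.0% to 23.9% of these counts in chow-fed mice (median 22.3%), 18.8% to 22.0% in WTD-fed mice (median 19.9%) and 17.3% to 21.2% in atorvastatin-treated mice (median 19.6%). The non-ATPase subunits had medians of 33.3%, 36.0% and 35.8%, of which the single gene Psmd8 held 2.91%, 5.15% and 3.66%. Their summed TMM level was lower on WTD, with medians of 1254, 1159 and 1187 CPM. The alpha ring had medians of 21.6%, 20.9% and 21.0%, and the ATPase ring of 20.0%, 19.6% and 20.0%. Ranges of chow and WTD overlapped in each of these classes. Without the 8 libraries that lacked weak genes, the beta ring medians were 21.9%, 19.8% and 19.6%, and those of the non-ATPase subunits 33.8%, 36.2% and 36.1%.

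The beta ring had the most calls of the classes. Of its 7 members 6 fell on WTD compared with chow against the bulk of the genes (median log2 fold change of the class -0.35), and 0 with scaling to total counts. Among all genes 16.0% fell with TMM and 7.07% with total counts. Psmb5, the chymotrypsin-like subunit, had a level of 36.5 to 67.1 CPM in chow-fed mice (median 45.5), 24.3 to 42.3 CPM in WTD-fed mice (median 35.4) and 23.9 to 37.5 CPM in atorvastatin-treated mice (median 29.1). Every WTD-fed mouse lay below the chow median, but only 8 of 16 below the lowest chow-fed mouse. The fall of Psmb5 on WTD was -0.48 ± 0.09 (log2 fold change ± SE, edgeR adjusted p = 2.9e-05), or -28.3%.

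Psmb6, the caspase-like subunit, ranged from 124 to 191 CPM on chow (median 153), from 76.6 to 161 CPM on WTD (median 113) and from 80.5 to 138 CPM with atorvastatin (median 104). Its fall on WTD was -0.43 ± 0.09 (edgeR adjusted p = 4.9e-05). Psmb7, the trypsin-like subunit, ranged from 136 to 191 CPM (median 142), from 88.6 to 161 CPM (median 115) and from 96.5 to 162 CPM (median 122) in the same order, and fell by 0.35 on the log2 scale (SE 0.08, edgeR adjusted p = 0.00039). The ranges of both genes overlapped between chow and WTD, and 11 and 14 of the 16 WTD-fed mice lay below the lowest chow-fed mouse. Of the other beta subunits, which are not catalytic, Psmb3, Psmb1 and Psmb4 fell by 0.36, 0.33 and 0.31. Psmb2 had the largest p of the ring (-0.19 ± 0.09, edgeR adjusted p = 0.086) and was not called.

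In the alpha ring, whose subunits form the gate of the barrel, 4 of 8 genes fell on WTD with TMM (16.0% of all genes). With total counts 0 fell (7.07% of all genes). Psma4 had the smallest p. It ranged from 117 to 169 CPM on chow (median 145), from 82.1 to 136 CPM on WTD (median 108) and from 93.0 to 133 CPM with atorvastatin (median 110), and fell by 0.40 (SE 0.07, edgeR adjusted p = 1.0e-06). Psma6 had -0.25 ± 0.07 (edgeR adjusted p = 0.0032), with medians of 108 and 93.2 CPM on chow and WTD. Psma6 was not called without the 8 libraries that lacked weak genes (-0.22, edgeR adjusted p = 0.020). Psma7 and Psma3 were also called, at -0.24 and -0.23. These calls were not stable, since Psma7 was called in 4 of 12 alternative settings and 16 of 42 fits without a mouse, and Psma3 in 6 of 12 and 39 of 42. Psma1 had the largest p, with 64.8 to 124 CPM on chow and 91.6 to 135 CPM on WTD (-0.01 ± 0.07, edgeR adjusted p = 0.95).

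In the ATPase ring 4 of 6 genes fell with TMM (16.0% of all genes) and 0 with total counts (7.07%). Psmc5 ranged from 86.7 to 127 CPM on chow (median 107) and from 70.8 to 103 CPM on WTD, with a change of -0.30 ± 0.07 (edgeR adjusted p = 0.00015). Psmc2 ranged from 110 to 153 CPM on chow (median 131) and from 77.1 to 153 CPM on WTD (median 100.4), with -0.31 ± 0.07 (edgeR adjusted p = 0.0004). Psmc4 and Psmc3 were called at -0.27 and -0.25. Psmc6 had the largest p (-0.12 ± 0.07, edgeR adjusted p = 0.16).

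The non-ATPase subunits were mixed. Of 11 genes 4 fell and 1 rose with TMM (16.0% and 17.5% of all genes). With total counts 5 rose and 0 fell (33.1% and 7.07%). Psmd4, a ubiquitin receptor of the cap, ranged from 124 to 188 CPM on chow (median 150), from 77.8 to 135 CPM on WTD (median 115) and from 96.7 to 132 CPM with atorvastatin (median 113). It fell by 0.47 on WTD (SE 0.07, edgeR adjusted p = 4.8e-07), and 13 of 16 WTD-fed mice lay below the lowest chow-fed mouse. Psmd3, a scaffold of the lid, fell by 0.42 (SE 0.07, edgeR adjusted p = 8.3e-07), with 15 of 16 WTD-fed mice below the lowest chow-fed mouse. Psmd6 and Psmd11 were called at -0.26 and -0.25. Psmd11 kept its call in 6 of 12 alternative settings and in 25 of 42 fits without a mouse. Psmd6 was called in 9 of 12 and in all 42. Psmd2, the large subunit of the base that docks ubiquitin-like domains, had the largest p, with medians of 214 and 210 CPM (0.01 ± 0.07, edgeR adjusted p = 0.93). Psmd14, which removes the ubiquitin chain, was not called (-0.13 ± 0.09, edgeR adjusted p = 0.24).

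Psmd8 and Psmd10 were the only members called higher on WTD with TMM, and both were also called higher with total counts, at 0.96 and 0.93. Total counts shift all genes of a comparison together, upward here. A second call in the direction of that shift is no separate check, here or in later paragraphs. Psmd8, a lid subunit, ranged from 87.5 to 130 CPM in chow-fed mice (median 106), from 101 to 213 CPM in WTD-fed mice (median 168) and from 104 to 194 CPM in atorvastatin-treated mice (median 122). In 15 of 16 WTD-fed mice the level was above the highest chow-fed mouse, and the remaining one lay within the chow range. The rise was 0.64 ± 0.09 (edgeR adjusted p = 1.4e-07), or 55.4%. Psmd10 encodes gankyrin, a chaperone of the ATPase ring that is also known as an oncoprotein of liver. It ranged from 10.7 to 25.0 CPM on chow (median 14.9), from 17.9 to 32.4 CPM on WTD (median 23.9) and from 12.8 to 21.9 CPM with atorvastatin (median 19.7). All 16 WTD-fed mice lay above the chow median and 6 above the highest chow-fed mouse, with a rise of 0.60 ± 0.11 (edgeR adjusted p = 1.2e-05).

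Within the counts of the 36 members, the median share of Psmd8 was 2.91%, 5.15% and 3.66% for chow, WTD and WTD with atorvastatin, and that of Psmd10 0.414%, 0.787% and 0.609%. Without the 8 libraries that lacked weak genes these medians were 2.98%, 5.05% and 3.70% for Psmd8, and 0.413%, 0.797% and 0.611% for Psmd10. Both kept their call in each of the 42 fits that left out a mouse, with a range of 0.61 to 0.67 for Psmd8 and 0.55 to 0.70 for Psmd10. The other chaperones differed from Psmd10. Psmd9 fell by 0.37 (SE 0.10, edgeR adjusted p = 0.0017), and Psmd5 was not called (0.07 ± 0.08, edgeR adjusted p = 0.50). Both overlap genes on the other strand, and the part of this in their values was not tested.

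**Figure D2:**
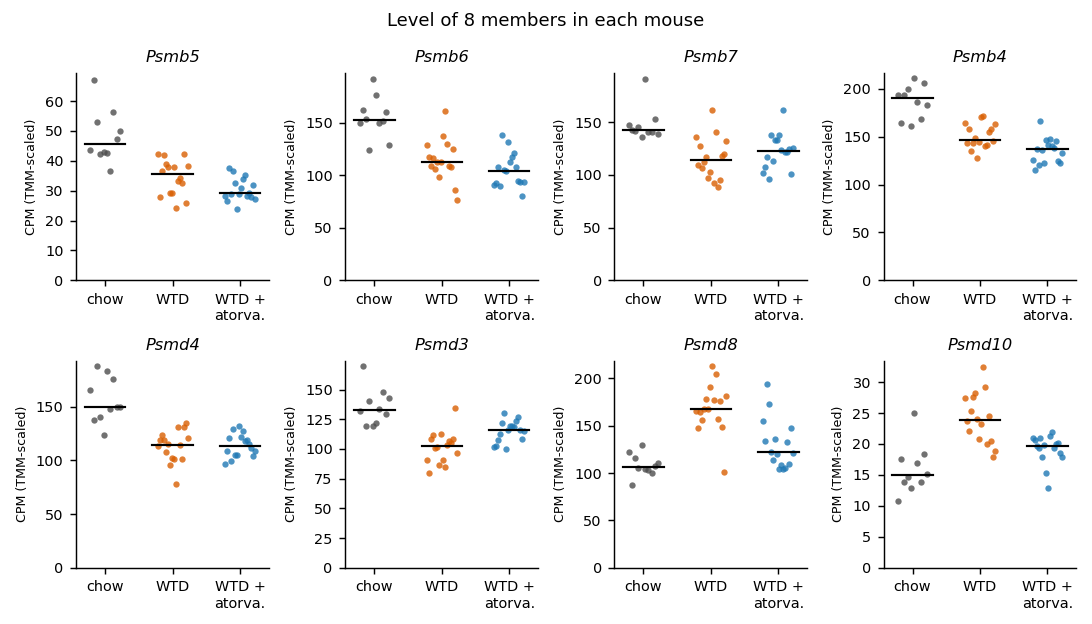
TMM-scaled CPM of 8 members in each mouse (points) with the group median (line). Psmb5, Psmb6, Psmb7, Psmb4, Psmd4 and Psmd3 were called lower on WTD than on chow with TMM and not called with total counts. Psmd8 and Psmd10 were called higher on WTD with TMM, with medians of 106 and 168 CPM for Psmd8. They were also higher with total counts, a scale that moves all genes up on WTD.

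Psma8, the alpha subunit of germ cells, and Psmc3ip, which is no subunit, had few counts. Psma8 ranged from 0 to 1.67 CPM on chow and from 0 to 2.87 CPM on WTD (1.13 ± 0.72 on the log2 scale, edgeR adjusted p = 0.21). Psmc3ip ranged from 0 to 0.62 CPM on chow and from 0 to 3.2 CPM on WTD (2.10 ± 0.80, edgeR adjusted p = 0.028). Fitted changes at so few counts depend on the prior of the model. Without these genes the median change of the other 34 was -0.24.

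Psma8 and Psmc3ip had the lowest mean levels per length of the main transcript on chow, at 0.31 and 0.18 CPM per kb. Among the other 34 members the level per length was on chow highest for Psmb6 (194 CPM per kb), Psmb4 (158) and Psma7 (149). It was lowest for the chaperones Psmd9 (20.8), Psmd10 (11.1) and Psmd5 (9.20). Such rankings depend on the transcript length taken, such as 2911 bases for Psma2 and 914 for Psma7. Whether these transcripts are the main ones in liver was not tested. Psmb5 stood at 53.6 CPM per kb on chow, 38.4 on WTD and 33.9 with atorvastatin, well below its catalytic partners Psmb6 and Psmb7 (194 and 127 on chow). Psmd8 went from 70.5 CPM per kb on chow to 109.5 on WTD, where only Psma7, Psmb4 and Psmb6 had a higher mean, and to 84.5 with atorvastatin. Psma7 and Psmb4, at 126.9 and 127.3 on WTD, did not differ beyond their spread over mice.

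**Figure D3:**
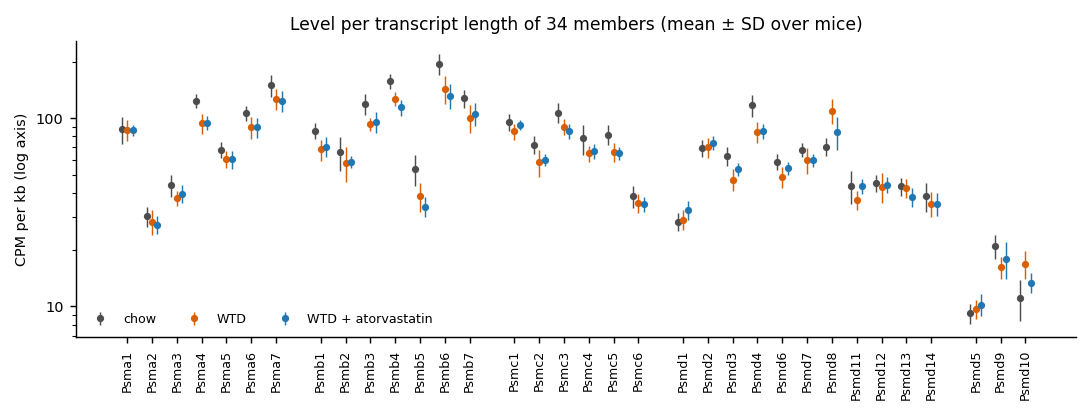
Mean level per kb of the main transcript (log axis) with SD over mice for 34 members, in the 10 chow-fed, 16 WTD-fed and 16 atorvastatin-treated mice, on the TMM scale. Levels span from 9.20 (Psmd5) to 194 CPM per kb (Psmb6) on chow, and Psmd8 rises from 70.5 to 109.5 CPM per kb on WTD.

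Sequence in front of the start site was read for the 29 members with an entry in the RefSeq table for GRCm38.p6. Psma8, Psmb1, Psmb2, Psmb7, Psmc3, Psmd3 and Psmd7 had none. The 250 bases before the RefSeq start were searched on both strands for the core of the antioxidant response element that NRF1 and NRF2 bind (TGACNNNGC), the CCAAT box, an ETS site (CCGGAAG) and the site of the nuclear respiratory factor, another protein than NRF1 of Nfe2l1. The response element was found in 5 members (Psmb5, Psmb6, Psmc6, Psmd9 and Psmd12), against 11.5% of all 27025 genes in the table. The ETS site was found in 10 of 29 members against 7.83% of all genes, the nuclear respiratory factor site in 6 against 4.23%, and the CCAAT box in 12 against 37.5%. Of the members with the response element, Psmb5, Psmb6 and Psmd9 were called lower on WTD with TMM, and Psmc6 and Psmd12 were not called. Of all 36 members 19 were called lower, and of all genes 16.0%. A link between the element and the fall was not tested.

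The windows of the members with the strongest falls of the catalytic ring and of the cap, and of the members that rose, are shown 5′ to 3′ on the strand of the gene, with matched motifs in capitals. The capitals mark the response element 47 bases before the start in Psmb5 and 9 bases before it in Psmb6. They mark an ETS site and a CCAAT box on the other strand (ATTGG) in Psmd4, and 3 CCAAT boxes in Psmd10, while the window of Psmd8 held none of these letters. A match is a description of the letters and no measured binding.
Psmb5, chr14:54617996-54618245, minus strand: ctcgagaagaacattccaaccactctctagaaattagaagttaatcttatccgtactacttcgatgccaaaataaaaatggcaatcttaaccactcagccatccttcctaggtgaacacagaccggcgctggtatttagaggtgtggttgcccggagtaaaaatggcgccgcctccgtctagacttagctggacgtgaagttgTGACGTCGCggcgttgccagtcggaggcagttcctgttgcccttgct
Psmb6, chr11:70525107-70525356, plus strand: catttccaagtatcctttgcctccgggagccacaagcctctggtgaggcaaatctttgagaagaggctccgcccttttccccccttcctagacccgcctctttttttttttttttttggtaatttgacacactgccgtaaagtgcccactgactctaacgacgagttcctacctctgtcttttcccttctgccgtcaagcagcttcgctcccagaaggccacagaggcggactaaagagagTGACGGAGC
Psmd4, chr3:95042615-95042864, minus strand: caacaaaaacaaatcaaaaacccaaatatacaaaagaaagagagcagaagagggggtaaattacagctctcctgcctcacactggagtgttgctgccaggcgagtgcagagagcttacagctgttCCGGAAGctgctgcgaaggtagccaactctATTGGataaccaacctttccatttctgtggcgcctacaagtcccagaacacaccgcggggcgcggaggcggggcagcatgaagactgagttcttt
Psmd8, chr7:29180674-29180923, minus strand: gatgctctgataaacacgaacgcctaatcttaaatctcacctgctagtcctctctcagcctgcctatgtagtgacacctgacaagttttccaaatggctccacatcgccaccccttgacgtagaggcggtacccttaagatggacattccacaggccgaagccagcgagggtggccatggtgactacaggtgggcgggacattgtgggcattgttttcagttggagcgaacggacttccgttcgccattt
Psmd10, chrX:140956712-140956961, minus strand: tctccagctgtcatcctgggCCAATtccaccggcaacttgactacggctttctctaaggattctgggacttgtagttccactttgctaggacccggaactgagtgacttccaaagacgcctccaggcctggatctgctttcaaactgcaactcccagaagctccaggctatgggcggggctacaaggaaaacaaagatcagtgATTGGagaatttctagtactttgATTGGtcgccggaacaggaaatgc

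The comparison of atorvastatin-treated with WTD-fed mice asks what the drug changed on the same diet. Psmd8 was the only member called, and it was lower with atorvastatin (-0.37 ± 0.08, edgeR adjusted p = 0.00095), or -22.8%. Of 16 treated mice 14 lay below the median of the WTD-fed mice, and the ranges overlapped. With edgeR 0 members rose and 1 fell, against 4.84% and 2.26% of all genes. DESeq2 called 0 higher and 3 lower, next to 2.69% and 2.60% of 26492 genes, a larger set that includes genes with low counts. Limma-voom called 4 higher and 2 lower (11.8% and 8.41% of 15574 genes). With total counts 0 rose and 7 fell (2.12% and 6.56%), at a median of -0.15 for the members and -0.16 for all genes. The share of rises among all calls was 68.2% with TMM, 24.4% with total counts and 50.9% with DESeq2. When the 8 libraries that lacked weak genes were left out, Psmd8 had -0.30 (edgeR adjusted p = 0.019), and 0 members were called in either direction, against 3.07% of all genes higher and 1.81% lower.

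Psmd10 was close to the threshold, at -0.33 ± 0.10 (edgeR adjusted p = 0.013), and all 16 treated mice lay below the WTD median. Psmd11, a lid subunit, had 0.24 ± 0.07 (edgeR adjusted p = 0.015), with 9 of 16 treated mice above the highest WTD-fed mouse. Psmd3 had 0.18 ± 0.06 (edgeR adjusted p = 0.035) and Psmb4 -0.16 ± 0.05 (edgeR adjusted p = 0.046). Psmb5 had -0.18 ± 0.08 (edgeR adjusted p = 0.16). Psmb4 and Psmb5 were among the 7 members called lower with total counts, where Psmb4 had -0.32 and Psmb5 -0.35. In the alpha and ATPase rings no member was called with TMM. Psma3 (0.08 ± 0.06) and Psmc1 (0.11 ± 0.05) had the smallest p there and turned to -0.08 and -0.05 with total counts. The median of the members was 0.01 with TMM, and that of all genes 0.00. Leaving out single mice changed these counts. Without WTD-fed mouse Gen20, 2 members were called higher and 2 lower. Without chow-fed mouse AZ2, 1 was higher, and without chow-fed mouse AZ6 or WTD-fed mouse Gen21, 2 were lower.

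Atorvastatin-treated mice were also set against chow. This comparison shares its chow-fed mice with the first one, so values are given side by side and the calls were not compared. With TMM 14 of 36 members were lower and 0 higher than on chow, against 10.7% and 14.2% of all genes. DESeq2 called 14 lower and 0 higher, next to 7.13% and 9.92% of 26492 genes, a larger set that includes genes with low counts. Limma-voom called 18 lower and 2 higher (13.9% and 18.1% of 15574 genes). With total counts 5 were lower and 5 higher (6.34% and 20.8%). Leaving out the 8 libraries that lacked weak genes gave 16 lower and 1 higher, Psmd10 (11.5% and 16.0%). The median change was -0.18 with TMM (all genes 0.04) and -0.03 with total counts (all genes 0.20). Of all calls 57.0% were rises with TMM and 76.7% with total counts. Without chow-fed mouse AZ6 or treated mouse Gen28, 1 member was called higher.

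The beta ring again had the most calls, with 6 of 7 members lower than on chow with TMM (10.7% of all genes). Psmb5 was at -0.66 ± 0.09 (edgeR adjusted p = 1.1e-07), or -36.7%, next to -0.48 on WTD alone. Psmb6 was at -0.56 ± 0.09 (edgeR adjusted p = 8.7e-07), next to -0.43. Psmb4 was at -0.47 ± 0.06 (edgeR adjusted p = 1.6e-08), next to -0.31, and ranged from 161 to 211 CPM on chow, 128 to 171 CPM on WTD and 115 to 166 CPM with atorvastatin. For these subunits 14, 14 and 15 of 16 treated mice lay below the lowest chow-fed mouse. The same 3 genes with Psmd4 and Psma4 made up the 5 calls that were lower with total counts as well, at -0.51, -0.41, -0.32, -0.30 and -0.24 for Psmb5, Psmb6, Psmb4, Psmd4 and Psma4.

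In the other classes 3 of 8 alpha ring genes, 3 of 6 ATPases and 2 of 11 non-ATPase subunits were lower than on chow with TMM. Among all genes 10.7% were lower. Psma4 was at -0.39 ± 0.07 (edgeR adjusted p = 3.4e-06), Psma7 at -0.27 ± 0.08 (edgeR adjusted p = 0.0042), Psmc3 at -0.33 ± 0.07 (edgeR adjusted p = 7.3e-05), Psmc5 at -0.32 ± 0.07 (edgeR adjusted p = 9.6e-05) and Psmd4 at -0.45 ± 0.07 (edgeR adjusted p = 1.5e-06). Psmd3 was at -0.24 ± 0.07 (edgeR adjusted p = 0.0043). Psmd8 and Psmd10 were not called against chow with TMM (0.26 ± 0.09 with edgeR adjusted p = 0.024, and 0.27 ± 0.11 with edgeR adjusted p = 0.053), and were called higher with total counts, at 0.43 each. Psmd11 (-0.01 ± 0.08), Psma1 (-0.01 ± 0.07), Psmc1 (-0.05 ± 0.06) and Psmb2 (-0.17 ± 0.09) had the largest p of their classes and were not called.

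**Figure D4:**
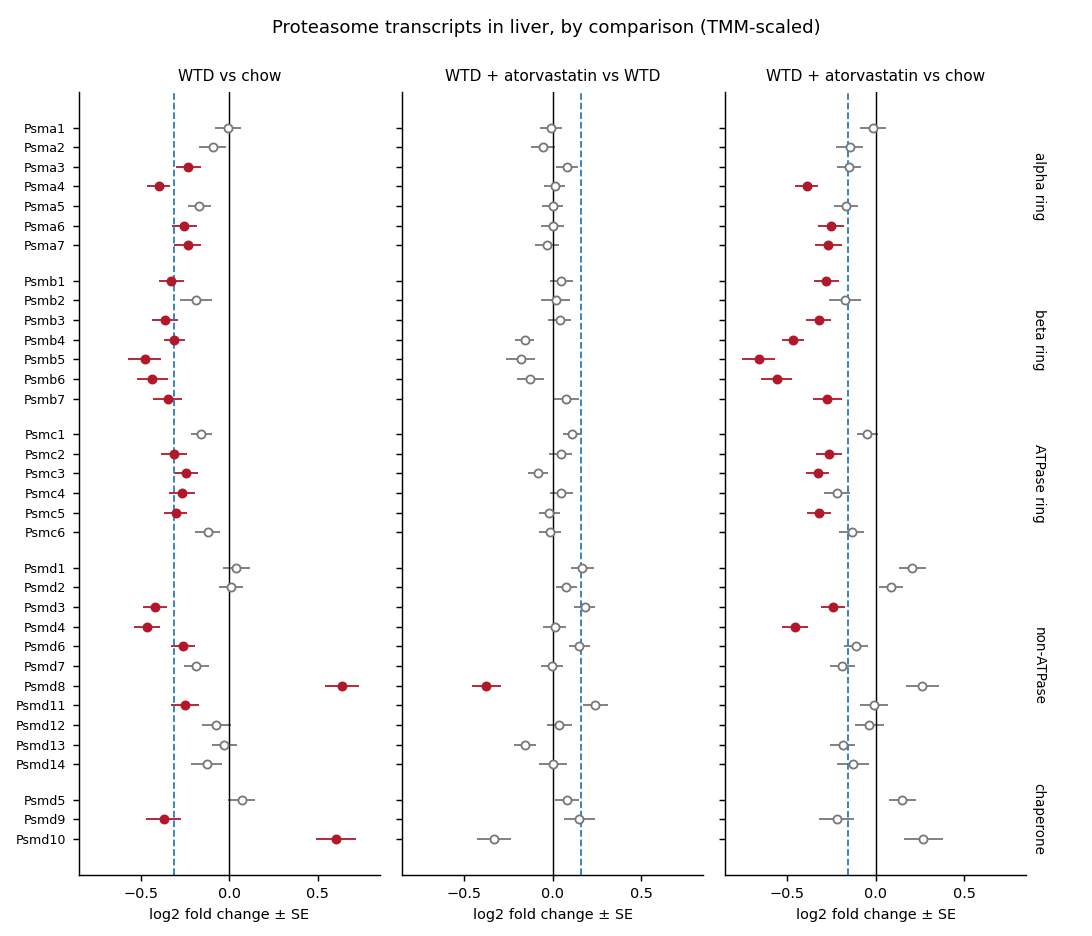
Log2 fold change with SE of 34 members by class in the 3 comparisons, with TMM scaling (filled red, adjusted p under 0.01; open grey, not called; solid line, no change with TMM; dashed line, no change with scaling to total counts, at -0.31, 0.16 and -0.15). In WTD against chow most members lie left of the solid line but around the dashed line, so their direction turns with the scaling. Psmd8 (0.64) and Psmd10 (0.60) lie right of the solid line, and so also of the dashed line.

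The balance between the inducible and the constitutive catalytic subunits was taken as a ratio of counts within each library, which no scaling can move. The ratio of Psmb8 to Psmb5 ranged from 0.564 to 1.57 in chow-fed mice (median 0.903), from 1.24 to 2.52 in WTD-fed mice (median 1.71) and from 1.27 to 2.43 in atorvastatin-treated mice (median 1.59). The highest chow-fed mouse lay below the median of either WTD-fed group. The mean log2 ratio was 0.88 higher on WTD than on chow (two-sided permutation test, adjusted p = 4.5e-05 over 9 tests, from p = 1e-05, the smallest that 100000 permutations can give). With atorvastatin it was 0.82 higher than on chow (permutation test, adjusted p = 4.5e-05), and it differed by -0.06 from WTD (permutation test, adjusted p = 0.59). These differences were 0.74, 0.79 and 0.05 when the 8 libraries that lacked weak genes were left out.

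The other pairs moved less. The ratio of Psmb9 to Psmb6 had medians of 0.189, 0.234 and 0.280 on chow, WTD and WTD with atorvastatin. The difference was 0.40 for WTD against chow (permutation test, adjusted p = 0.084), 0.55 for atorvastatin against chow (permutation test, adjusted p = 0.0072) and 0.15 for atorvastatin against WTD (permutation test, adjusted p = 0.41). The call of 0.55 was lost when single mice were left out, namely chow-fed mouse AZ2, AZ3, AZ6 or AZ7 or treated mouse Gen23 or Gen25, with adjusted p between 0.011 and 0.018 in these permutation tests. It was also lost without the 8 libraries that lacked weak genes (0.46, permutation test, adjusted p = 0.036). Without WTD-fed mouse Gen13 the difference of WTD against chow passed, at 0.48 (permutation test, adjusted p = 0.0087). The ratio of Psmb10 to Psmb7 had medians of 0.394, 0.495 and 0.438, and none of its 3 differences (0.36, -0.20 and 0.16) passed, with permutation test adjusted p of 0.10, 0.19 and 0.34.

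Of the inducible genes themselves, Psmb8 rose on WTD (0.39 ± 0.09, edgeR adjusted p = 0.00051; 0.71 with total counts). It ranged from 34.1 to 68.8 CPM on chow, from 45.9 to 88.4 CPM on WTD and from 45.2 to 64.3 CPM with atorvastatin. This rise was not called without the 8 libraries that lacked weak genes (0.29, edgeR adjusted p = 0.015). Psmb9 and Psmb10 were not called, at -0.05 ± 0.13 and -0.01 ± 0.11. The fall of Psmb5, its constitutive partner, was called with TMM and not with total counts (-0.17, edgeR adjusted p = 0.16).

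**Figure D5:**
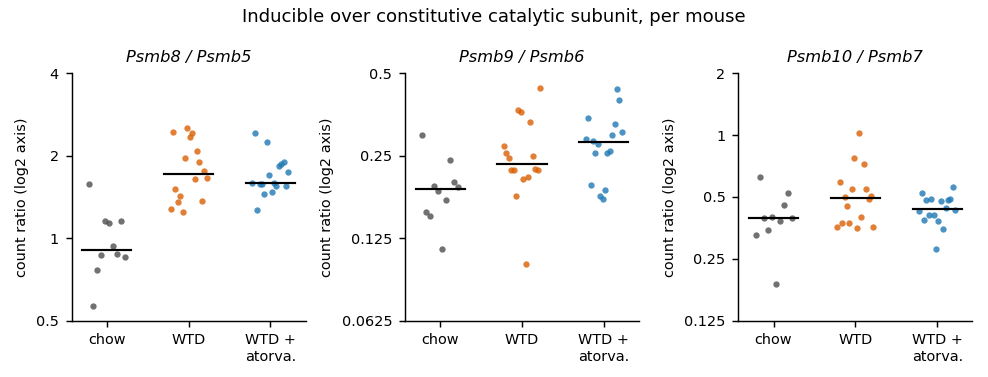
Ratio of counts of inducible to constitutive catalytic subunit in each mouse (points, log2 axis) with the group median (line). The Psmb8 to Psmb5 ratio had medians of 0.903, 1.71 and 1.59 on chow, WTD and WTD with atorvastatin, and the groups of the other pairs overlapped widely.

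How far members varied together between mice was described by pairs. Over the 561 pairs of the 34 genes with high counts, the median Pearson correlation of log2 CPM was 0.09 in the 10 chow-fed, 0.22 in the 16 WTD-fed and 0.33 in the 16 atorvastatin-treated mice, against 0.04, 0.01 and 0.01 over all pairs of tested genes. The points of a pair share library, depth and scaling. The tested genes include many with low counts, so their pairs are not matched to the level of the members. Psmd8 had the lowest median correlation with the others in the WTD-fed groups, at -0.09 on WTD and -0.29 with atorvastatin, followed by Psmd10 at 0.06 and -0.07.

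Genes that act with the proteasome were read from fixed lists. Of 6 assembly chaperones outside the member rule that could be tested, 2 fell on WTD with TMM (16.0% of all genes). With total counts 0 fell (7.07% of all genes). Pomp, which matures the core particle, went from 147 ± 19.1 (SD) to 109 ± 13.0 CPM (-0.44 ± 0.07, edgeR adjusted p = 9.4e-07), and Psmg1 fell by 0.40 (SE 0.09, edgeR adjusted p = 0.00045). With atorvastatin Pomp was 0.49 below chow (-0.49 ± 0.07, edgeR adjusted p = 1.5e-07), also with total counts (-0.34). Of 5 genes of other caps and the inhibitor, 1 fell on WTD with TMM, next to 16.0% of all genes. With total counts 0 fell and 1 rose (Psme3, 0.56), next to 7.07% and 33.1% of all genes. The fall was that of Psme2, a subunit of the interferon-inducible cap (-0.28 ± 0.07, edgeR adjusted p = 0.0006). Psme3, of the nuclear cap, was higher with atorvastatin than on chow on both scales (0.32 with TMM, edgeR adjusted p = 0.0026, and 0.48 with total counts).

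Of 10 particle-bound factors and shuttle receptors, 1 fell on WTD with TMM (16.0% of all genes). With total counts 0 fell and 4 rose (7.07% and 33.1% of all genes). The fall was that of Adrm1, a ubiquitin receptor of the cap (-0.39 ± 0.08, edgeR adjusted p = 4.5e-05; -0.08 and not called with total counts). Sem1, a small lid subunit without the Psm prefix, was 0.56 lower with atorvastatin than on chow (-0.56 ± 0.12, edgeR adjusted p = 0.00016; -0.40 with total counts). Ubqln2, a shuttle receptor, was higher with atorvastatin than on chow (0.70, edgeR adjusted p = 0.00093; 0.86 with total counts). Ubqln1, which carries clients to the proteasome, was higher with atorvastatin than on WTD (0.29 ± 0.07, edgeR adjusted p = 0.0027; 0.13 and not called with total counts). Of 8 genes of p97, the unfoldase that works ahead of the proteasome, and its cofactors, Ubxn1 (-0.41 ± 0.07, edgeR adjusted p = 6.0e-06) and Ufd1 (-0.22 ± 0.07, edgeR adjusted p = 0.0098) fell on WTD with TMM. With total counts 0 of the 8 fell and 2 rose (7.07% and 33.1% of all genes), namely Vcp, p97 itself (0.25), and Nsfl1c (0.35).

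Among 8 genes around NRF1, 3 rose and 3 fell on WTD with TMM (17.5% and 16.0% of all genes). With total counts 4 rose and 2 fell (33.1% and 7.07%). Nfe2l1 itself stood at 151 ± 19.7 CPM on chow, 149 ± 15.5 CPM on WTD and 161 ± 17.7 CPM with atorvastatin (SD over mice), and was not called in any comparison with TMM; with total counts it was 0.29 higher on WTD and 0.24 higher with atorvastatin than on chow. Ddi2, the protease that releases NRF1, fell from 187 ± 29.9 to 113 ± 18.2 CPM (-0.73 ± 0.09, edgeR adjusted p = 4.3e-10; -0.43 with total counts). It was 0.32 higher with atorvastatin than on WTD (0.32 ± 0.08, edgeR adjusted p = 0.0028; 0.15 and not called with total counts). Syvn1, a ubiquitin ligase of the endoplasmic reticulum, fell by 1.12 (SE 0.16, edgeR adjusted p = 1.0e-07; -0.81 with total counts).

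The partners of the NRF family moved apart. Maff and Mafk rose on WTD by 1.46 and 0.73, on both scales, and Mafg fell by 0.42 with TMM only. Nfe2l2, which encodes NRF2, rose by 0.40 (SE 0.08, edgeR adjusted p = 3.8e-05; 0.71 with total counts). Among genes of ubiquitin and its activation, Ubb fell on WTD with TMM (-0.25 ± 0.07, edgeR adjusted p = 0.0017; 0.07 and not called with total counts), and with total counts Uba1 and Rps27a rose by 0.45 and 0.59. With atorvastatin against WTD, Uba1, the main activating enzyme, was higher (0.24 ± 0.06, edgeR adjusted p = 0.0046; 0.08 and not called with total counts), and Rps27a was lower on both scales (-0.39 with TMM, edgeR adjusted p = 0.00065, and -0.56 with total counts). Ubiquitin genes have near-identical copies, so that their counts are uncertain.

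Several members overlap a gene on the other strand, and whether the counting used strand is not given in the sources used here. The partners with the most counts were those of Psmd13 with Sirt3, Psmb7 with Nek6, Psmd5 with Cutal, Psmc3 with Slc39a13, Psma3 with 3110056K07Rik, Psmd9 with Gm26745 and Psmc3ip with Mlx. For Psmc3ip the neighbour had 26080 counts against 643, and for Psmd13 and Psmd5 the neighbour also had more counts than the member. Psmd9 also overlaps Hpd, the hepatocyte marker with 0 counts. This 0 does not show that Hpd RNA was absent, since reads that were ambiguous between genes were not counted. Psmb5, Psmb6, Psmd4, Psmd8 and Psmd10 had no such neighbour with more than 0 counts.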

How the data were processed

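Strand-specific poly-A RNA-seq was run on 1 liver per mouse. The authors trimmed reads (Trimmomatic), used STAR 2.5 for alignment (GRCm38) and HTSeq 0.6.1p1 for counting, as the submitters' notes name these tools, and deposited raw counts. Whether the counting used strand is not given in the sources used here. Reads without a feature (2.28% on average), ambiguous reads (5.96%) and reads with several alignments (4.68%) were left out of library sizes. The authors counted on GENCODE vM19. Gene types, positions and lengths were taken here from GENCODE vM21, a later release, which held 54409 of 54446 IDs.

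Counts were tested with edgeR 4.0.16 (filterByExpr, TMM, quasi-likelihood F test with robust estimation, all 42 mice in 1 fit, Benjamini-Hochberg), which was checked on simulated counts. SE is the log2 fold change divided by the root of F. Ratios of counts used 0.5 added to each count and 100000 two-sided permutations. Levels per kb used the APPRIS principal transcript, and the longest one where several had the best tag. Alternatives used DESeq2 1.42.0, limma 3.58.1 and other scalings and filters. Within each class and comparison, the members described were the pair with the smallest p and the one with the largest, with the catalytic subunits. Other members and list genes with values in the text were added after their values were seen. Members and lists were chosen with earlier results of these data known. The labels tie each library to 1 mouse, and no pair of libraries was alike within sampling noise (smallest chi-square per gene between libraries of a group 11.3). One gene of the list of ubiquitin genes is not reported here.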

Additional observations from a re-analysis of the deposited data

Results flagged for a closer look

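In the chow group, 4 of 42 sets of values had a mouse far from the other 9 by Dixon's test, which flags about 1 in 20 groups by chance. Psma1 was at 64.77 CPM in mouse AZ2 (nearest other mouse 95.9), and Psma3 at 84.89 CPM in the same mouse (nearest 115). Psmb2 was at 86.79 CPM in mouse AZ5 (nearest 62.2), and Psmb7 at 191.34 CPM in mouse AZ6 (nearest 153). These 3 libraries also had no count in 59.0%, 45.1% and 26.8% of weakly expressed genes, and the part of this in the values was not tested.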

How the results depend on the processing

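Scaling to total counts changed most results, and it was chosen after seeing the data, as was leaving out the 8 libraries that lacked weak genes. With total counts, WTD against chow gave 8 members higher and 0 lower (33.1% and 7.07% of all genes), at a median of 0.0812. The sign of a value turned in 12 cases where either the TMM value or the altered one was called, all of this kind (WTD against chow). Called lower with TMM and not called with total counts were Psma3 0.0797, Psma6 0.0557, Psma7 0.0827, Psmb4 0.0048, Psmc3 0.0681, Psmc4 0.0469, Psmc5 0.01, Psmd6 0.0499 and Psmd11 0.0616. Not called with TMM and called higher with total counts were Psma1 0.3041, Psmd12 0.2369 and Psmd13 0.2861. For atorvastatin against WTD, total counts gave 7 lower (6.56% of all genes) and a median of -0.1506. For atorvastatin against chow they gave 5 higher and 5 lower (20.8% and 6.34%), at a median of -0.0276. The cause follows from the scaling, which moves all genes together.

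For atorvastatin against WTD, 3 members were lower with RLE scaling (3.08% of all genes) and with DESeq2 (2.60%). The same number was lower with the filter of 10 counts in all mice (5.16%) and at adjusted p under 0.05 (4.74%). With upper-quartile scaling (2.76%), in a fit of only the 2 groups (4.40%) and with limma-voom (8.41%), 2 were lower. None (0) was lower without the 8 libraries (1.81%). Higher were 1 in the fit of 2 groups (4.93%), 4 with limma-voom (11.8%) and 2 at adjusted p under 0.05 (8.24%). For atorvastatin against chow, 9 were lower without a filter (7.27%). In that comparison 1 was higher with the filter of 10 counts (17.5%) or without the 8 libraries (16.0%). With limma-voom (18.1%) and at adjusted p under 0.05 (19.5%) 2 were higher. The ratio of Psmb9 to Psmb6 for atorvastatin against chow was 0.4552 without the 8 libraries and no longer called. Beyond total counts the cause was not tested.

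Leaving out single mice gave 0 to 2 members higher and 1 to 2 lower for atorvastatin against WTD, 0 to 1 higher for atorvastatin against chow, and a log2 Psmb9 to Psmb6 ratio of 0.3222 to 0.4837 for WTD and 0.4681 to 0.6215 for atorvastatin against chow. In WTD against chow 16 to 19 members were lower and 2 to 2 higher. Of the single results of the members and of Psmb8, Psmb9 and Psmb10, 4838 kept their side of the threshold in these fits. Of the rest, 63 lost their call and 13 gained one. No paired analysis was possible because each mouse belongs to 1 group and replicate numbers were given in accession order only.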
